A study of Homo sapiens with 10 samples.

Results

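The 45 genes described here encode proteins of DNA mismatch repair, nucleotide excision repair, homologous recombination, the Fanconi pathway, translesion synthesis and the checkpoint kinases. They were listed by name for their pathway, with no threshold on a measured value, and all 45 were found once in both count tables among 59453 genes. They fall into 6 mismatch repair genes, 8 nucleotide excision repair genes, 13 homologous recombination genes, 10 Fanconi genes, 4 translesion genes and 4 checkpoint kinases. RNA was sequenced from HAP1, a human line with a nearly haploid genome that came from the leukaemia line KBM-7. The untreated groups were wild type (WT, clones 2 and 11), MUTYH knockout (clones 7 and 8), OGG1 knockout (clones 1 and 22) and cells without either gene (DKO, clones 4 and 14), and each clone gave 1 library. WT clones 2 and 11 were also sequenced 24 hours after exposure to 100 µM H2O2. OGG1 is the glycosylase that removes 8-oxoguanine from DNA, and MUTYH removes adenine paired with it. The knockouts carry small CRISPR-Cas9 insertions or deletions, and both DKO clones were derived from the same OGG1 knockout clone, so they share whatever that clone carried. The paper's supplement names this parent OGG1 clone 2, with a product number that ends in 22. The library labels do not state that it is OGG1 knockout clone 22. If it is, the DKO clones are not independent of that library.

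Mismatch repair corrects bases that were misincorporated during replication, through MSH dimers that read the mismatch, MLH and PMS proteins that nick the strand and the exonuclease EXO1. Nucleotide excision repair cuts out a short single strand around a bulky lesion. Homologous recombination and the Fanconi pathway mend double-strand breaks and crosslinks with the sister chromatid as template, translesion polymerases copy past damaged bases, and ATM, ATR, CHEK1 and CHEK2 signal the damage. None of these genes belongs to the glycosylase step that was deleted, although 8-oxoguanine paired with adenine is also met by mismatch repair.

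The libraries held between 22225091 and 22674964 counts, and every pair differed by more than sampling noise (chi-square per degree of freedom of at least 12.2). Levels are given as CPM, counts per 1000000 counts after TMM scaling. OGG1 stood at 12.2 and 13.1 CPM in the untreated WT clones, at 1.22 and 11.3 CPM in OGG1 knockout clones 1 and 22, and at 9.64 and 9.84 CPM in the DKO clones. MUTYH stood at 4.66 and 3.95 CPM in WT, at 4.67 and 3.68 CPM in the MUTYH knockout and at 4.75 and 2.21 CPM in the DKO. A count per gene does not read a small insertion or deletion, so RNA levels near those of WT do not check the knockouts. The paper reports targeted mass spectrometry of both proteins as its check of knockout in every clone. The summed level of 6 blood cell genes (PTPRC, CD34, SPI1, GATA1, ITGAM and CD33) lay between 0.310 and 1.66 CPM, close to 0 for a line of leukaemic origin. That of 8 genes of other cell types (EPCAM, CDH1, KRT8, KRT18, COL1A1, COL1A2, PECAM1 and VIM) lay between 255 and 590 CPM. VIM alone gave 196 CPM of the lowest sum (untreated WT clone 2) and 499 CPM of the highest (treated WT clone 11). EPCAM, CDH1, COL1A2 and PECAM1 reached at most 2.96 CPM in any library. From both sets, CD34 and KRT8 were called higher in the OGG1 knockout and the DKO than in WT, and EPCAM in the DKO. Their part in the results was not tested.

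All 45 genes had counts in every library, and their levels per length spanned a wide range. Levels of different genes were compared only after division by the kilobases of merged exons in GENCODE v44. On that scale FANCI, the partner of FANCD2 in the ubiquitinated Fanconi clamp, had the highest median over the 8 untreated libraries, at 18.4 CPM per kilobase. EXO1 followed at 17.7, RAD54L, a translocase of recombination, at 13.8 and MSH6, which reads base mismatches, at 12.9 CPM per kilobase. FANCI ranged from 15.6 to 19.0 CPM per kilobase and EXO1 from 14.2 to 23.5, so the spread did not resolve their order. RAD54L and MSH6, and below them the kinase CHEK1 and the helicase gene ERCC2 at 11.4 and 11.3 CPM per kilobase, overlapped in the same way. The merged exons take in every annotated transcript of a gene, from 1.816 kilobases for XPA to 39.184 for ATM. XPA and ERCC8 had medians of 16.9 and 14.4 CPM over the untreated libraries, but 9.29 and 0.546 CPM per kilobase. The order of the genes thus rests in part on their annotated length.

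At the lower end, the endonuclease gene ERCC5 reached 0.448 CPM per kilobase and the mismatch repair gene MLH3 0.0488 CPM per kilobase. MLH3 had between 5 and 19 counts in the untreated libraries, and all statements about it rest on those counts. ERCC5 (chr13:102845831-102875995, plus strand, GRCh38) overlaps the read-through gene BIVM-ERCC5, and RAD50 (chr5:132556019-132646349, plus strand) another coding gene model, so their counts may have been split. Many members overlap a coding neighbour, among them ERCC1, ERCC2, XRCC3, NBN, FANCC, FANCF, REV3L and ATM. Whether the counting used strand, and how it treated reads that align to several places, is not given in the sources used here. PMS2, CHEK2 and FANCD2 have pseudogene copies elsewhere in the genome, and their values are uncertain for that reason.

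Promoters were read from RefSeq (GRCh38.p14, 250 bases before to 50 after each start) for 43 members, and 6 short motifs were searched on both strands. The E2F motif TTTCCCGC was present in 6 of 43 members, beside 3.21% of tested genes and 1.98% of all genes with a promoter, in MSH6, XRCC2, FANCC, FANCD2, REV3L and POLI. The core GCGTG of the AHR and ARNT site was present in 30 of 43 (69.8%, beside 58.0% and 40.6%). CCAAT, read by NFY, was found in 39.5% of members, beside 42.7% and 39.7%, and TTTGAA of the cell cycle homology region in 9.30%, beside 13.6% and 18.2%. TTTGGCGC, another E2F form, was found in MSH3 (2.33%, beside 1.36% and 0.795%), and the NRF1 motif GCGCATGCG in MLH3 and ERCC6 (4.65%, beside 4.05% and 2.34%). Stretches of 30 bases outside annotated exons are shown for members on which results below turn, all on the minus strand, with the motif in capitals and CCAAT in XRCC3 as its reverse complement ATTGG.
BRCA1, chr17:43125521-43125550: agactgggtggCCAATccagagccccgaga
REV3L, chr6:111483288-111483317: ctctcgctcctTTTCCCGCcgagccccctc
XRCC3, chr14:103715544-103715573: gattgagactttggATTGGttagttagtca
FANCC, chr9:95317738-95317767: attcgtcggaatTTTCCCGCgacgccgcgg
The BRCA1 stretch ends 157 bases before the RefSeq start used, that of REV3L 70, that of XRCC3 93 and that of FANCC 29. The stretches of BRCA1, REV3L and FANCC lie within the annotated span of their own gene, which begins upstream of the start used. REV3L has another RefSeq start upstream of its stretch. BRCA1 and REV3L are described below after H2O2, XRCC3 between clones and FANCC between knockouts. A match of letters is a description and not a site.

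**Figure D1:**
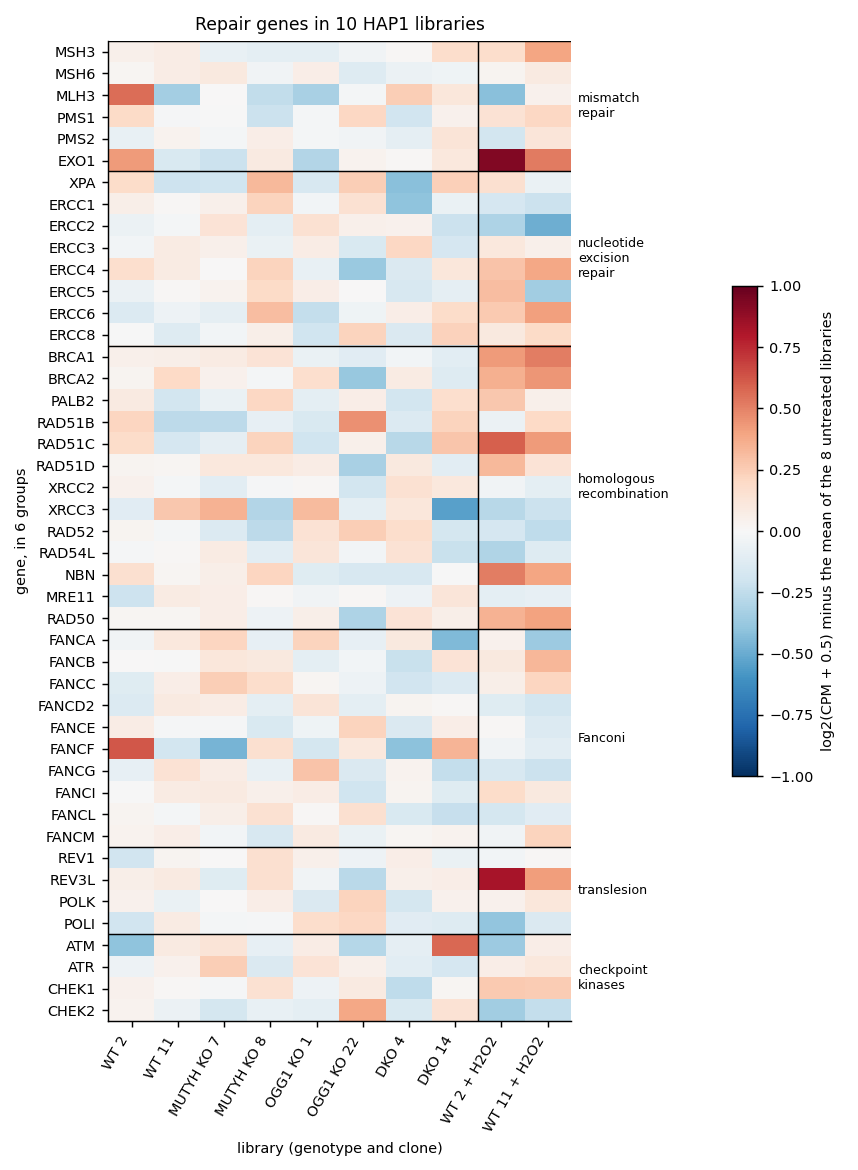
Level of each of the 45 genes (rows, in 6 groups) in each of the 10 libraries (columns), as log2(CPM + 0.5) minus the mean of the 8 untreated libraries, on a colour scale from -1 to 1. No genotype forms a block of 1 colour, and the deepest colours are those of EXO1 and REV3L in treated WT clone 2.

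The first question was whether loss of OGG1, of MUTYH or of both changed the RNA of these pathways. No member was called in any comparison of genotypes. The study's criterion for a call was used, an unadjusted P of 0.05 or less with a change of more than 1 on the log2 scale. In the MUTYH knockout against WT 0 of 45 members were called, where 1.19% of the 17881 genes tested were. In the OGG1 knockout the count was 0 of 45 with a background of 1.67%, and in the DKO 0 of 45 with a background of 1.77%. At an unadjusted P of 0.05 and any fold, 0 members passed in each of these 3 comparisons, against 1.72%, 2.74% and 2.94% of all genes (edgeR quasi-likelihood test), and DESeq2 also gave 0 in each. The smallest adjusted p of any member was 0.999.

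The 95% interval of the log2 fold change stayed between -1 and 1, which is less than 2-fold either way, for 43 of 45 members in the MUTYH knockout, 43 in the OGG1 knockout and 41 in the DKO. Among all genes tested the same held for 59.2%, 57.5% and 57.9%. The median SE was 0.178 over the members and 0.295 over all genes. The shares and SE of all genes take in genes of every level, and no set matched in level was compared. Intervals within 1.5-fold were reached by 31, 28 and 30 members, so smaller changes than that were not resolved for the others. The interval passed 2-fold for MLH3 and FANCF in each of the 3 comparisons, and for ATM and XRCC3 in the DKO.

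**Figure D2:**
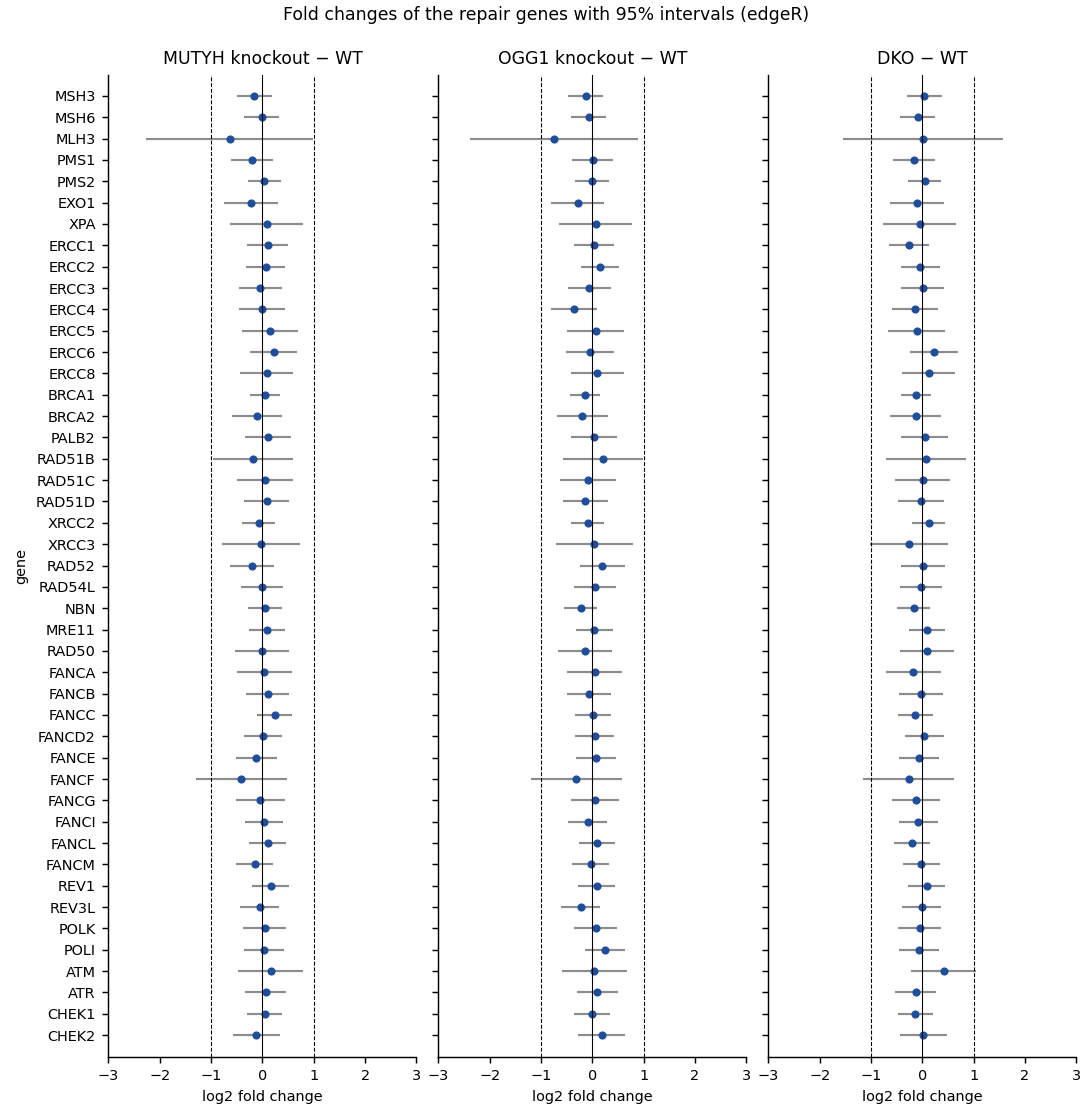
Log2 fold change (points) with its 95% interval (lines) of the 45 genes in the MUTYH knockout, the OGG1 knockout and the DKO, each against WT, with 2 clones per genotype. Dashed lines mark a log2 fold change of -1 and 1, and every interval includes 0.

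The medians of the 6 groups of genes lay close to 0. In the MUTYH knockout the median log2 fold change was -0.18 for mismatch repair, 0.08 for nucleotide excision repair, -0.01 for homologous recombination, 0.02 for the Fanconi genes, 0.04 for translesion synthesis and 0.05 for the checkpoint kinases, beside 0.01 over all genes. In the OGG1 knockout these medians ran from -0.10 (mismatch repair) to 0.07 (translesion synthesis and the checkpoint kinases). Of the 6 mismatch repair genes, 5 had a negative log2 fold change in each single knockout and 3 in the DKO, and 0 of them passed P of 0.05. Both single knockouts were compared with the same WT clones, so these signs share their reference, in which clone 2 was high for MLH3 and EXO1.

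In the DKO the Fanconi genes had the lowest median, -0.10, with 9 of 10 below 0, and the log2 fold changes spanned -0.27 to 0.04. None passed the test, and 3 of the 10 had both DKO clones below both WT clones. Over all 45 members, 9 had both DKO clones below and 3 both above the WT clones (26.7% in all), where 25.7% of all genes had groups that did not overlap. The corresponding counts were 5 below and 6 above in the MUTYH knockout beside 21.5% of all genes, and 6 below and 4 above in the OGG1 knockout beside 25.2%. By direction the background was 9.78% below and 11.8% above in the MUTYH knockout, 12.2% and 13% in the OGG1 knockout, and 12.6% and 13.1% in the DKO. In the DKO the members below WT made up a larger share, and those above WT a smaller share, than among all genes, and neither difference was tested.

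Among the members with the smallest P in the MUTYH knockout was FANCC, a subunit of the Fanconi core ubiquitin ligase, with 42.7 and 40.6 CPM in clones 7 and 8 against 32.9 and 37.5 CPM in WT. Both knockout clones were above both WT clones, a log2 fold change of 0.24 with an SE of 0.15 (edgeR, adjusted p = 1.00). Errors after ± are SE throughout. The FANCC value became 0.14 without WT clone 2 and 0.34 without WT clone 11. RAD52, an annealing protein of recombination, stood at 18.7 and 17.1 CPM against 21.0 and 20.3 CPM in WT, a log2 fold change of -0.21 ± 0.18. PMS1, of mismatch repair, overlapped WT at 39.3 and 33.9 CPM against 45.02 and 39.1 CPM (log2 fold change -0.20 ± 0.17). This became -0.32 without MUTYH knockout clone 7, -0.09 without clone 8 and -0.10 without WT clone 2.

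In the OGG1 knockout the nuclease gene ERCC4, whose product XPF cuts on the 5′ side of a lesion, had 18.8 and 15.2 CPM against 22.3 and 21.1 CPM in WT. Its log2 fold change was -0.35 ± 0.19 (edgeR, adjusted p = 0.999), and -0.20 without clone 22. NBN, the sensor subunit of the MRE11 complex, stood at 55.2 and 53.7 CPM against 67.1 and 60.7 CPM, with a log2 fold change of -0.23 ± 0.14. The polymerase gene POLI stood at 23.2 and 23.7 CPM against 17.9 and 21.7 CPM, with a log2 fold change of 0.25 ± 0.17 that became 0.11 without WT clone 2 and 0.39 without WT clone 11. In all 3 genes the groups did not overlap, and none of the differences passed the test.

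In the DKO the 3 members with the smallest P were ERCC1, ATM and FANCL. ERCC1, the partner of XPF, stood at 26.6 and 33.7 CPM against 36.7 and 35.5 CPM in WT, both clones below WT, with a log2 fold change of -0.26 ± 0.17 (edgeR, adjusted p = 1.00). Without DKO clone 4 it was -0.11 and without DKO clone 14 -0.45. The E3 ligase subunit FANCL stood at 20.4 and 19.2 CPM against 23.1 and 22.4 CPM, with a log2 fold change of -0.20 ± 0.15. ATM, the kinase that responds to double-strand breaks, had a log2 fold change of 0.41 ± 0.27, with unequal clones.

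ATM reached 114 CPM in DKO clone 14, from 2582 counts, and 71.9 CPM in DKO clone 4, while the other untreated libraries lay between 57.8 and 83.8 CPM. Thus only 1 of the 2 DKO clones stood above WT. Without clone 4 the log2 fold change was 0.70, at an unadjusted P under 0.05 (adjusted p = 0.998), and without clone 14 it was 0.04. The other genes measured within 5 Mb of ATM (chr11:108223044-108369102, plus strand, GRCh38) had a median of 0.18 above their untreated median in DKO clone 14 on the log2 scale (31 genes), where ATM itself was 0.58 above. In DKO clone 4 these neighbours stood at -0.13 and ATM at -0.08. In treated WT clones 11 and 2 the neighbours stood at 0.19 and 0.15, and ATM at 0.07 and -0.35.

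Comparisons between the knockouts were of the same size. In the DKO against the MUTYH knockout 0 of 45 members were called (1.99% of all genes), and 1 passed P of 0.05 beside 3.43% of all genes. This was FANCC, at 31.3 and 32.6 CPM in the DKO against 42.7 and 40.6 CPM, with a log2 fold change of -0.38 ± 0.15 (edgeR, adjusted p = 1.00, 95% interval -0.72 to -0.03). It no longer passed when any of the 4 libraries was left out (-0.33 without MUTYH knockout clone 7, -0.43 without clone 8, -0.36 without DKO clone 4 and -0.42 without clone 14), without a count filter, or with the 4 libraries fitted alone. FANCC also had the smallest P in the MUTYH knockout against WT, which shares the MUTYH clones. Against the OGG1 knockout, 0 members of the DKO were called (1.44% of all genes), and between the single knockouts 0 were called (1.43%), with 0 at P of 0.05 in both beside 2.62% and 2.53%. The interaction, which asks whether losing MUTYH had another effect without OGG1 than with it, called 0 of 45 beside 2% of all genes, and 0 passed P of 0.05 beside 2.62%. Leaving out WT clone 11, the interaction of MLH3 was called with a log2 value of 2.05 (adjusted p = 1.00), which rests on 19 counts in WT clone 2.

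Over the 8 untreated libraries the members had a median range of 0.42 on the log2 scale against 0.79 over all genes. It was 0.77 over the 16514 genes with a mean level in the span of the members. That span starts at the low level of MLH3 and holds most of the 17881 genes tested, so it does not match genes in level. The range was under 1.5-fold for 35 of 45 members. PMS2 and MSH6, both at 1.17-fold, and the tumour suppressor gene BRCA1, from 85.6 to 102 CPM, varied least. Only MLH3, at 3.80-fold, and FANCF, an adaptor of the Fanconi core complex, at 2.18-fold, exceeded 2-fold. In each group the widest range was that of MLH3 (mismatch repair), XPA (nucleotide excision repair), XRCC3 (homologous recombination), FANCF (Fanconi), REV3L (translesion synthesis) and ATM (checkpoint kinases).

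The untreated libraries fell on 2 sides over the whole transcriptome, with 1 clone of each genotype on each. Side A held WT clone 2, clone 8 of the MUTYH knockout, clone 22 of the OGG1 knockout and clone 14 of the DKO, and side B the other 4, and the labels do not say what the sides are. The sides were chosen from these libraries, with 4241 of 17881 genes past an adjusted p of 0.05 between them, so what follows is a description with no test. In 16 of 45 members (35.6%, beside 29.2% of all genes tested) the 4 libraries of side A did not overlap the 4 of side B. Side A was higher in 9 of them (15.4% of all genes), EXO1, XPA, ERCC8, PALB2, RAD51B, RAD51C, FANCF, POLK and CHEK1, and lower in 7 (13.8% of all genes), ERCC3, BRCA2, XRCC3, RAD54L, FANCA, FANCD2 and FANCG.

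XPA, which verifies the damaged strand in nucleotide excision repair, stood at 18.9, 20.9, 19.8 and 19.6 CPM on side A and at 14.3, 14.4, 14.8 and 12.3 CPM on side B, in the order WT, MUTYH knockout, OGG1 knockout and DKO. FANCF stood at 20.2, 14.6 and 16.6 CPM in WT, the MUTYH knockout and the DKO on side A and at 11.4, 9.29 and 9.64 CPM on side B, and at 315 against 253 counts in the OGG1 knockout. XRCC3, a recombination gene, ran the other way, with 31.2, 27.5, 31.5 and 23.0 CPM on side A and 40.7, 43.2, 42.2 and 36.7 CPM on side B. In XPA and XRCC3 the gap between the clones of every genotype was wider than any difference between genotype means, and in FANCF this held in every genotype except the OGG1 knockout.

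RAD51C, which forms a complex with XRCC3, stood at 51.9, 53.3, 47.2 and 55.3 CPM on side A against 40.6, 42.9, 39.7 and 37.7 CPM on side B, so the partners ran in opposite directions between the sides. FANCA, a scaffold of the core complex, stood at 72.0, 69.5, 69.5 and 54.0 CPM on side A against 79.1, 85.7, 86.1 and 78.9 CPM on side B. Of the 16 members, 9 kept the order of WT clones 2 and 11 after H2O2, and ERCC3, ERCC8, RAD51B, FANCA, FANCD2, FANCG and POLK did not.

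**Figure D3:**
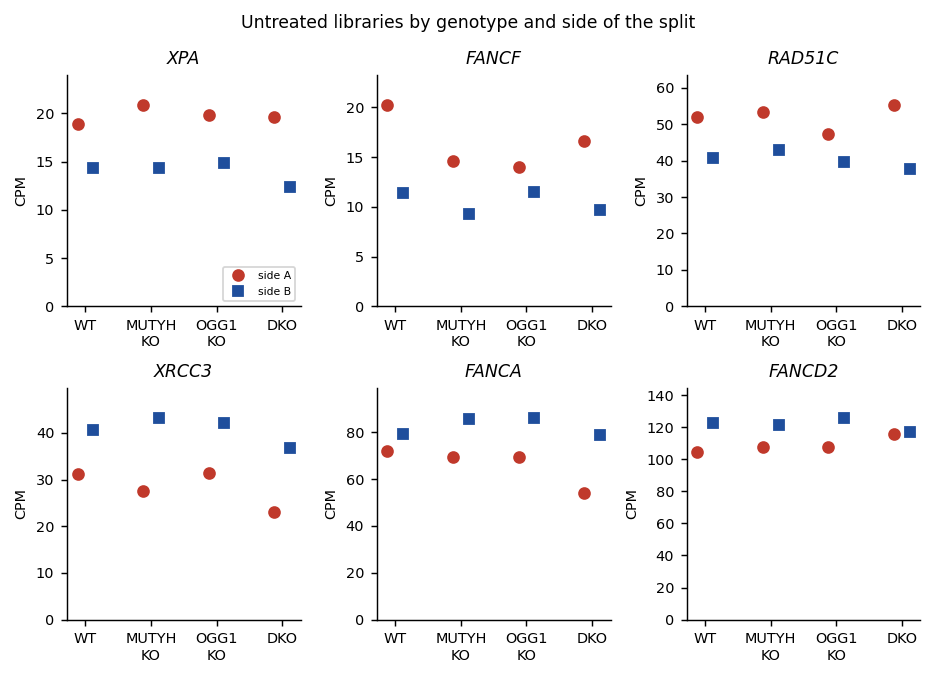
CPM of XPA, FANCF, RAD51C, XRCC3, FANCA and FANCD2 in the 8 untreated libraries by genotype, with side A as red circles and side B as blue squares, each point 1 clone. In every panel the 4 circles lie on the same side of the 4 squares, with FANCD2 in the DKO at 116 and 117 CPM.

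With the side as a block in the fit, 0 members were called in the 3 comparisons with WT (1.78%, 2.43% and 2.44% of all genes), the 3 between knockouts (2.06%, 2.55% and 1.83%) and the interaction (3.17%), while a few passed an unadjusted P of 0.05. The sides were chosen as the split of these same libraries with the most genes apart, so the block narrows the residual spread by construction, and the P values with it are too small and are given as a description. In the DKO against WT these were 2 of 45, beside 7.32% of all genes. They were ERCC1 with a log2 fold change of -0.27 ± 0.11 and XRCC3 with -0.29 ± 0.12 (edgeR, adjusted p = 0.682 for both). ERCC1 also passed in the DKO against the OGG1 knockout (-0.30) and against the MUTYH knockout (-0.36), 3 comparisons that share the same DKO clones. Counts were 3 of 45 in the DKO against the OGG1 knockout (7.58% of all genes), 3 in the DKO against the MUTYH knockout (8.47%), 2 between the single knockouts (7.1%) and 2 in the interaction (7.02%), and 0 in either single knockout against WT (4.46% and 7.18%). No member passed adjustment.

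The second question was what H2O2 did to these genes in WT cells. No member was called (0 of 44, beside 1.75% of 16997 genes), and MLH3 was not tested because it fell under the count filter. At an unadjusted P of 0.05 there were 5 of 44 (11.4%, beside 7.63% of all genes), 4 higher (3.57%) and 1 lower (4.07%), and the smallest adjusted p was 0.638. DESeq2 gave 6. With the WT clone as a replicate block, which compares each treated library with its own untreated clone, 9 of 44 passed P of 0.05 (20.5%, beside 20.1% of all genes), 7 higher (9.61%) and 2 lower (10.5%). None was called there (2.78% of all genes), and 1 passed adjustment, EXO1, beside 2.57% of all genes. The blocked share of members was close to that of all genes. Chi-square per degree of freedom between treated and untreated clone 11 was 40.6. It was 24.0 between treated clone 11 and MUTYH knockout clone 8 and 27.3 for DKO clone 14, both of side A. For WT clone 2 and OGG1 knockout clone 22, also of side A, it was 45.2 and 50.9. Between treated clone 2 and treated clone 11 it was 25.3, and between the same clones untreated 41.3. In clone 11 all the members listed above as higher on side A rose, from 0.08 (FANCF) to 0.67 (EXO1) on the log2 scale. Those listed as lower on side A fell, from -0.04 (ERCC3) to -0.49 (XRCC3), except BRCA2, which rose by 0.24. In clone 2 each of these sets held members that rose and members that fell. Untreated clone 11 was part of side B when these members were chosen. Whether the sides bear on the changes after H2O2 was not tested.

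BRCA1, which directs broken ends to recombination, stood at 95.9 and 96.5 CPM in untreated clones 2 and 11 and at 125 and 132 CPM in the treated ones. Both treated libraries also lay above all 8 untreated libraries, of which the highest reached 102 CPM. The log2 fold change was 0.41 ± 0.12 (edgeR, adjusted p = 0.638), and with the clone as a block 0.41 (adjusted p = 0.0945). It no longer passed an unadjusted P of 0.05 without treated clone 2 (0.44) or treated clone 11 (0.37).

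RAD51C, the partner of XRCC3, went from 51.9 to 69.3 CPM in clone 2 and from 40.6 to 61.3 CPM in clone 11, with a log2 fold change of 0.49 ± 0.17 (edgeR, adjusted p = 0.638). The clones kept their order, both were higher after treatment, and the blocked adjusted p was 0.0578. Without untreated clone 11 it was 0.33, without treated clone 2 0.39 and without treated clone 11 0.58, none past an unadjusted P of 0.05.

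NBN, the sensor subunit of the MRE11 complex, went from 67.1 to 85.7 and from 60.7 to 79.1 CPM, a log2 fold change of 0.36 ± 0.13 (adjusted p = 0.638). Its partner RAD50 had 9.15 and 9.14 CPM before and 11.6 and 12.1 CPM after, while MRE11, the nuclease of the complex, had 57.3 and 70.03 CPM before and 61.6 and 62.4 CPM after. RAD50 was higher in both clones and MRE11 was not, and neither passed an unadjusted P of 0.05. NBN no longer passed it without untreated clone 11 (0.29), treated clone 2 (0.29) or treated clone 11 (0.42).

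REV3L, the catalytic subunit of DNA polymerase zeta, responded unequally in the clones. It went from 48.3 to 82.2 CPM in clone 2 and from 49.4 to 62.1 CPM in clone 11, with a log2 fold change of 0.55 ± 0.17 (edgeR, adjusted p = 0.638, and 0.0599 with the block). Without treated clone 2 it was 0.32 and did not pass an unadjusted P of 0.05. The other translesion genes, REV1, POLK and POLI, did not pass it with or without the block.

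ERCC2, the helicase of transcription factor TFIIH, was the lower member. It went from 74.8 to 63.0 CPM in clone 2 and from 77.1 to 55.6 CPM in clone 11, a log2 fold change of -0.36 ± 0.14 (edgeR, adjusted p = 0.638). The treated libraries lay below all 8 untreated libraries, of which the lowest was 67.1 CPM in DKO clone 14, and leaving out any library lost the unadjusted P of 0.05 (-0.27 to -0.47). XRCC3 was lower with the block (-0.34, adjusted p = 0.209), from 31.2 to 27.8 and from 40.7 to 29.0 CPM. Unblocked it was -0.35, and -0.53 without untreated clone 2 and -0.14 without untreated clone 11. ERCC6 and BRCA2 also passed an unadjusted P of 0.05 with the block, both higher, at 0.43 and 0.28 (edgeR, adjusted p = 0.155 and 0.233).

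EXO1 had the largest log2 fold change of the members, and it was chosen for description after its values were seen. It went from 97.2 to 137 CPM in clone 2 and from 65.1 to 104 CPM in clone 11. The log2 fold change was 0.57 ± 0.24 without the block, where the untreated clones lay far apart (adjusted p = 0.638), and it rose by 0.58 ± 0.12 with the block (edgeR, adjusted p = 0.0305). Without untreated clone 2 it was 0.88 and without untreated clone 11 0.31. EXO1 lies at chr1:241847967-241895148 (plus strand, GRCh38). The 22 other measured genes within 5 Mb stood at a median of 0.32 relative to their untreated median on the log2 scale in untreated clone 2 and 0.31 in treated clone 2, and at -0.01 and 0.10 in clone 11.

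**Figure D4:**
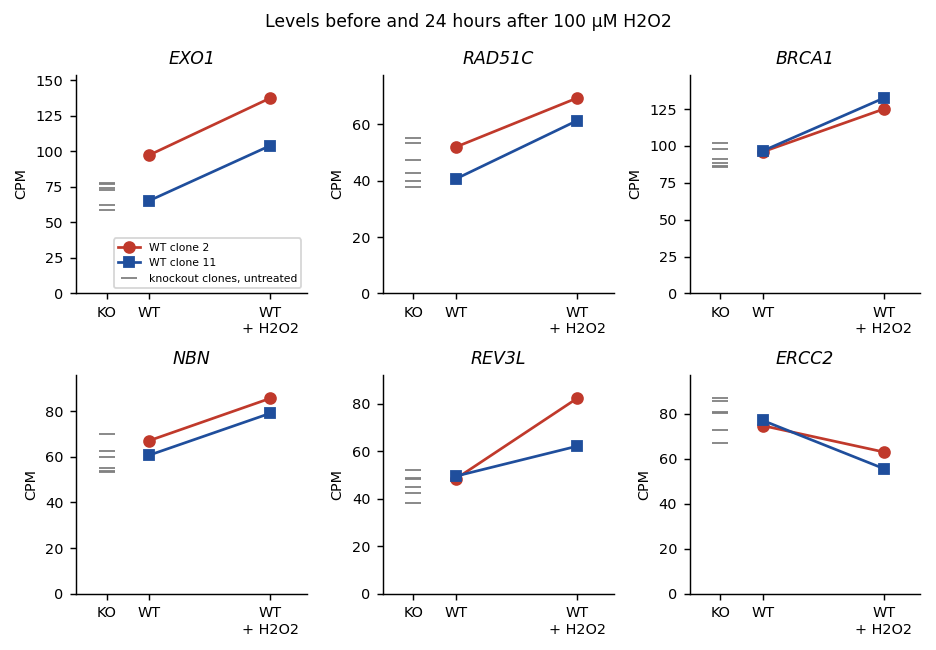
CPM of EXO1, RAD51C, BRCA1, NBN, REV3L and ERCC2 in WT clone 2 (red circles) and WT clone 11 (blue squares) before and 24 hours after 100 µM H2O2, joined by clone, with the 6 untreated knockout libraries as grey dashes. The first 5 genes lie higher after treatment in both clones and ERCC2 lower in both.

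The groups of genes differed in their medians after H2O2. Homologous recombination had a median log2 fold change of 0.20 with 8 of 13 above 0, and 3 of the 13 (BRCA1, RAD51C and NBN) were higher at P of 0.05, beside 3.57% of all genes. Fanconi genes had a median of -0.12 with 4 of 10 above 0, and 0 of 10 passed. Mismatch repair stood at 0.08 (5 tested), nucleotide excision repair at 0.04, translesion synthesis at 0.08 and the checkpoint kinases at 0.04, beside 0.00 over all genes. The difference between the groups was not tested. Summed over its 13 genes, homologous recombination went from 576 to 649.5 CPM in clone 2 and from 576 to 641 CPM in clone 11, and the Fanconi sum from 696 to 735 and from 744 to 699.9 CPM.

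The clones agreed in part. Of 44 members, 19 were higher and 11 lower after treatment in both clones, and 14 moved in opposite directions. Members with groups that did not overlap numbered 16 above and 9 below, or 56.8% beside 41.4% of all genes (21.5% above and 20% below). FANCF had a change of -0.67 on the log2 scale in clone 2, from 20.2 to 12.7 CPM, and of 0.08 in clone 11. ERCC5 had 0.40 in clone 2 and -0.41 in clone 11. RAD51B, of homologous recombination, had -0.31 in clone 2 and 0.51 in clone 11.

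**Figure D5:**
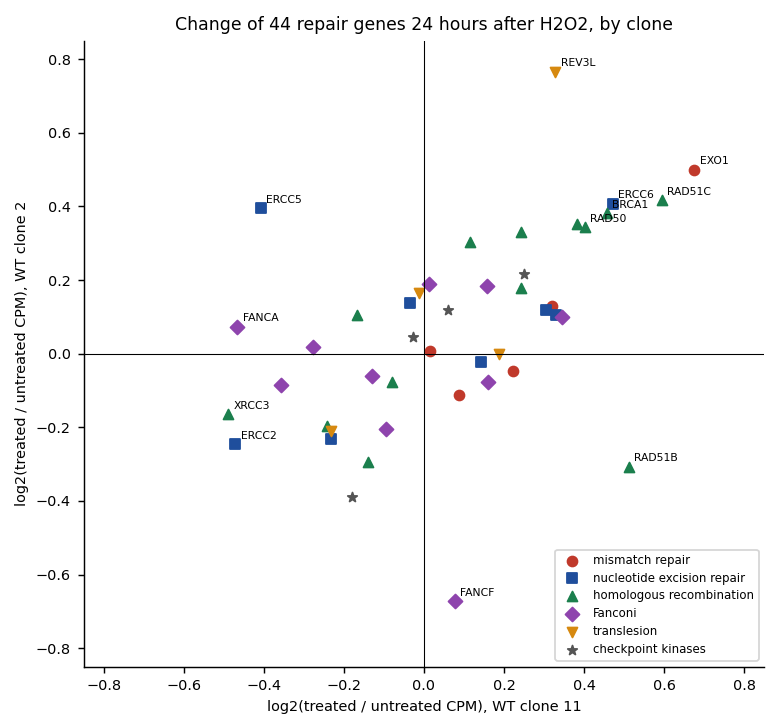
Log2 ratio of treated to untreated CPM in WT clone 2 (vertical axis) against WT clone 11 (horizontal axis) for the 44 tested members, coloured by group. Genes with a change over 0.4 in either clone are named, and 14 of the 44 lie in the 2 quadrants where the clones have opposite signs.

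Many of these genes are transcribed with the cell cycle, so cycle genes are given beside them. Of 16 genes of S phase, 15 had a positive log2 fold change after H2O2, with a median of 0.23 and 3 at P of 0.05, all higher, beside 3.57% of all genes. Their summed level went from 3660 to 4446 CPM in clone 2 and from 3615 to 4146 CPM in clone 11. The 12 genes of G2 and mitosis had a median of 0.06, and their sum went from 3622 to 4014 CPM in clone 2 and from 4151 to 3825 CPM in clone 11. With the block the S-phase cyclin CCNE2 had a log2 fold change of 0.67 (adjusted p = 0.0412) and the cycle phosphatase CDC25A, from the checkpoint list, 0.53 (adjusted p = 0.0412), both named after their values were seen. Whether the share of cells in S phase bore on the repair genes was not tested, and in bulk RNA a change in the share of such cells and a change per cell cannot be told apart.

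Other genes of nucleotide excision repair, the Fanconi pathway, translesion synthesis and the checkpoint were read from lists. Among those tested in the 3 knockout groups against WT, GTF2H2, a TFIIH subunit, was the only one called, 1 of 18 in its list beside 0.531% of all genes called lower in the DKO. Its log2 fold change in the DKO was -1.16 ± 0.46 (edgeR, adjusted p = 1.00). GTF2H2 has near-identical copies, so its counts are uncertain, and it also stood low in MUTYH knockout clone 7 and OGG1 knockout clone 22 (28.1 and 29.3 CPM, beside 69.5 and 58.7 CPM in WT and 23.9 and 33.5 CPM in the DKO). It was not low in MUTYH knockout clone 8 or OGG1 knockout clone 1 (67.3 and 57.7 CPM). Both DKO clones come from the same OGG1 knockout clone, and whether that bears on GTF2H2 was not tested. In the OGG1 knockout 2 of the 7 other translesion genes (POLH and SHPRH) were lower at P of 0.05, beside 1.35% of all genes. In the DKO 7 of the 8 other Fanconi genes had a negative log2 fold change, with a median of -0.16, and 0 passed P of 0.05. After H2O2 none of these lists held a called gene. There 3 of 18 other nucleotide excision repair genes, 1 of 13 other checkpoint genes and 0 of the 8 Fanconi and 7 translesion genes passed P of 0.05, all of them higher, beside 3.57% of all genes. The median log2 fold changes were 0.21, 0.07, 0.03 and 0.13 in that order, and their differences from the members were not tested. These medians hide unlike clones in some genes. In clone 2 DDB2, XPC and POLH went from 43.7, 35.8 and 43.6 to 80.8, 62.3 and 69.5 CPM. In clone 11 they went from 38.0, 37.6 and 39.6 to 34.2, 36.9 and 36.8 CPM.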

How the data were processed

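RNA-seq of 10 HAP1 libraries was analysed from 2 tables of raw read counts per gene deposited by the authors. According to the labels and methods the authors aligned reads to GRCh38.p13 with HISAT2 2.2.1 and counted them per gene with Rsubread against an Ensembl annotation. The untreated WT columns of both tables were identical and were used once.

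Counts were fitted with edgeR 4.0.16 in R 4.3.3 (TMM, filterByExpr, glmQLFit and glmQLFTest in legacy mode), with Benjamini-Hochberg adjustment over all genes tested. The 8 untreated libraries shared 1 fit (4 residual degrees of freedom) and the 4 WT libraries another (2). Errors are SE, and the 95% intervals use the t distribution. Each group holds 2 clones, so P measures the spread between clones. DESeq2 1.42.0, other scaling and filters, blocks and left-out libraries were alternatives. Clone numbers pair treated with untreated WT libraries, which come from the same clones, and deviations from the group means correlated over 16997 genes (Pearson r = 0.681).

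At the lowest TMM-scaled library size 1 CPM is 21.6 counts, a counting error of 21.5%. Fold changes were to be given for called members, for the 3 members with the smallest P in each comparison with WT and for the widest-ranging member of each group. FANCC between knockouts, and NBN, ERCC2, XRCC3 and EXO1 after H2O2, were named after their values were seen. So were some of the members passing with a block, and genes of other lists that were not called. The members and lists were chosen with earlier results of these data known. Lists of other mismatch repair and recombination genes are not reported here.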

Additional observations from a re-analysis of the deposited data

How the results depend on the processing

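The number of members called remained 0 in every comparison under every alternative run, apart from the interaction, where leaving out a library gave 0 to 1. The number at an unadjusted P of 0.05 moved in the following cases. After H2O2 it was 6 in place of 5 with DESeq2, without a count filter and with all 10 libraries in 1 fit. With the side of the libraries as a block, whose P values are too small because the sides were chosen from these libraries, it was 2 in the DKO against WT, 3 against the OGG1 knockout, 3 against the MUTYH knockout (1 without it), 2 between the single knockouts and 2 in the interaction. In the DKO against the MUTYH knockout it was 0 without a count filter and 0 with the 4 libraries fitted alone. With the WT clone as a replicate block it was 9 after H2O2 in place of 5, and 1 member in place of 0 passed adjustment. Leaving out each library in turn gave 0 to 1 in the OGG1 knockout and in the DKO against WT, 0 to 1 in the DKO against the MUTYH knockout, between the single knockouts and in the interaction, and 0 to 6 after H2O2, where 0 remained without treated clone 2, 1 without treated clone 11 and 3 without untreated clone 11. In those fits the lone library of a group is assumed to vary like the others. The causes were not tested.

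Among 37 named fold changes, 254 alternative values other than left-out libraries gave 241 with the same direction and side of P of 0.05, 3 that lost it, 6 that gained it and 4 with another sign. The signs changed for MLH3 in the DKO (-0.00252 without a filter) and for ATM after H2O2 (0.00122 without a filter, 0.000379 with the replicate block and 0.00223 with all 10 libraries), all close to 0. When a library was left out, 19 of the 37 changed sign. The ranges were -0.075 to 0.43 for ATM, -0.76 to 0.057 for FANCF, -0.40 to 0.27 for XRCC3, -1.29 to 0.60 for MLH3, -0.20 to 0.32 for XPA and -0.20 to 0.071 for REV3L in the MUTYH knockout. In the OGG1 knockout they were -0.19 to 0.31 for ATM, -0.67 to 0.15 for FANCF, -0.20 to 0.25 for XRCC3, -1.41 to 0.48 for MLH3 and -0.16 to 0.27 for XPA. In the DKO they were -0.72 to 0.20 for FANCF, -0.65 to 0.024 for XRCC3, -0.65 to 1.24 for MLH3, -0.44 to 0.23 for XPA and -0.039 to 0.00135 for REV3L. After H2O2 they were -0.24 to 0.27 for ATM, -0.72 to 0.10 for FANCF and -0.14 to 0.25 for XPA.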
